A study of Mus musculus with 47 samples.

Results

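The genes described here are 10 genes of ciliated mimetic cells, namely Foxj1, Trp73, Mcidas, Rfx2, Rfx3, Dynlrb2, Dnah5, Dnah9, Tekt1 and Ccdc39, out of 55471 genes listed in the study. They were taken by name, as regulators of multiciliated cell identity and components of motile cilia. The rule uses no measured value, but the list was drawn up with earlier results of these data known. All 10 were found by symbol in both count tables, and all 10 passed the filter on low counts in each. RNA was sequenced in bulk from medullary thymic epithelial cells (mTECs) of C57BL/6 mice, sorted as CD45-, EpCAM+ and Ly51- cells with high (mTEChi) or low (mTEClo) surface MHC class II. The adult table held 8 mTEClo WT, 4 mTEClo AireKO, 7 mTEChi WT and 4 mTEChi AireKO libraries, from mice of 4 to 6 weeks. The WT libraries came from mice of 4 or 5 weeks and the AireKO libraries from male mice of 5 or 6 weeks. The neonatal table held mTEChi libraries of 5 Ctrl, 3 EEDcKO, 3 AireKO and 3 AireEEDdKO samples and mTEClo libraries of 3 Ctrl, 4 EEDcKO and 3 AireEEDdKO samples, from mice of 1 to 6 days, several of them pools of male and female animals. Neonatal ages differed between groups. AireKO and AireEEDdKO libraries came from mice of 4 or 6 days. Ctrl mTEChi libraries came from mice of 1, 2 to 3 or 6 days, and Ctrl mTEClo libraries from 1 or 2 to 3 days. EEDcKO mTEChi libraries came from mice of 1, 2 to 3 or 6 days, and those of mTEClo from 4 days as well. Genotype, fraction and age are thus partly mixed. AireKO mice lack Aire in all cells. In EEDcKO mice floxed Eed alleles are deleted by Cre under the Foxn1 promoter, which acts in the whole thymic epithelium and not in mTECs alone, and AireEEDdKO mice carry both changes. No neonatal mTEClo AireKO library was analysed here.

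Mimetic cells are mTECs that take on the expression program of a peripheral cell type, and the ciliated kind resembles the multiciliated cells of the airway, oviduct and brain ventricles. In such cells Mcidas, a geminin-family coactivator, and the p53-family factor Trp73 act upstream of the forkhead factor Foxj1 and the X-box factors Rfx2 and Rfx3, which together switch on the genes of the motile axoneme. The axoneme components here are the outer-arm dynein heavy chains Dnah5 and Dnah9, the dynein light chain Dynlrb2, the microtubule-doublet protein Tekt1 and Ccdc39, a molecular ruler that sets the spacing of inner arms. Aire is a nuclear protein of mTECs that raises the expression of tissue-restricted genes, and Eed is a core subunit of PRC2, the complex that methylates histone H3 at lysine 27.

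On GRCm38, 3 of the 10 genes lie on chromosome 11: Foxj1 at 116330704 to 116335399, Dnah9 at 65831282 to 66168551 and Tekt1 at 72344722 to 72362442, each on the minus strand. Trp73 lies on chromosome 4 at 154056253 to 154140208, Rfx2 on chromosome 17 at 56775897 to 56831013, Rfx3 on chromosome 19 at 27761721 to 28011166 and Ccdc39 on chromosome 3 at 33812362 to 33844310, also on the minus strand. The genes on the plus strand are Mcidas on chromosome 13 at 112993845 to 113000394, Dynlrb2 on chromosome 8 at 116504974 to 116515915 and Dnah5 on chromosome 15 at 28203752 to 28472052. Reads were counted regardless of strand, so overlapping genes cannot be separated fully. The overlap covers 16.9% of the exonic bases of Ccdc39 (with Ttc14), 5.1% of those of Trp73 (with Trp73os) and 3.1% of those of Dnah9 (with Gm12296), and none in the other 7 genes.

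Promoter sequence is shown for the 3 members with paired letters of an X-box, the element that RFX factors bind, because 2 RFX genes are themselves members. Tekt1 is shown too, chosen after the matches were seen, because 1 of its windows holds 3 single arms close to the start. RefSeq promoter windows of 300 bases (250 before to 50 after the start, GRCm38.p6) were found for 9 of the 10 genes, 11 windows in all, and none was used for Foxj1. The strict pair of arms, GTTNCC and GGNAAC with 0 to 3 bases between them, was in 0 of the 11 windows and in 0.804% of 32851 mouse promoters. A looser pair, GTTNCN and GNNAAC with the same spacing, which also takes in every strict pair, was tried after the strict one gave no match. It was present in 3 of the 9 genes, Dynlrb2, Dnah9 and Rfx2, and in 3.56% of all promoters. The single arm GTTNCC, which also occurs within the strict pair, was in windows of all 9 genes, but 45.3% of all promoters hold it. The letters TGTTTAC of a forkhead element were in 0 of the 11 windows and in 3.65% of all promoters. All letters were searched on both strands, and a match or its lack says only which letters these windows hold. The windows below start 120 bases before the RefSeq start and leave out bases in exons of the GENCODE models after the last marked letters. Capitals mark the looser pair in Dynlrb2 (chr8:116504895-116504976, plus strand), Dnah9 (chr11:66168552-66168671, minus strand) and Rfx2 (chr17:56831014-56831128, minus strand). The first marked base lies 51, 82 and 116 bases before the start in that order. In each of them the pair, as spelled above, reads on the strand opposite to the one printed.
Dynlrb2: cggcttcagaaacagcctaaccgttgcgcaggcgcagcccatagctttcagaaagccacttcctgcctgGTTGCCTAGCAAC
Dnah9: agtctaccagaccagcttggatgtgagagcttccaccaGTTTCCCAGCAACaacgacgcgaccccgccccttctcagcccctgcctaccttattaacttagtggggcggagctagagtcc
Rfx2: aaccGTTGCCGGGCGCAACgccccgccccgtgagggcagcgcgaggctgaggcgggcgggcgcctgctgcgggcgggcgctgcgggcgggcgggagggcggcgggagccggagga
In Tekt1 (chr11:72361883-72362002, minus strand), capitals mark the single arm in either direction, which begins 87, 35 and 15 bases before the start of 1 of its 2 RefSeq windows. That window lies in an intron of the longer GENCODE model of Tekt1.
Tekt1: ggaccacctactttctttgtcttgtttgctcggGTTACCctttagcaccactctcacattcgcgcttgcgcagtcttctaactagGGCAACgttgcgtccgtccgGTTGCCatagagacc

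The adult libraries held 1602125 to 3938588 counts (median 2998595) and the neonatal ones 1578579 to 4817418 (median 3020965), so a gene at a few CPM rested on few reads. CPM are counts scaled to a common library total with TMM factors, errors of levels are SD over libraries, and folds are log2 fold changes with SE. For groups of over 5 libraries the lowest, the median and the highest value are given. The share of all genes whose groups do not overlap was not computed, so a lack of overlap only describes the values. It adds no support to a call and comes more easily with fewer libraries. A gene was called when its adjusted p (edgeR, Benjamini-Hochberg over all genes tested) was under 0.05 and its change at least 2-fold, and the share of all tested genes called in the same direction is given beside each count of members. Aire RNA averaged 818 ± 56.0 CPM in adult mTEChi WT (n = 7) and 29.3 ± 11.6 in mTEChi AireKO (n = 4), and 69.2 ± 33.4 in mTEClo WT (n = 8) and 2.74 ± 3.53 in mTEClo AireKO (n = 4). In neonatal mTEChi it averaged 619 ± 154 in Ctrl, 821 ± 236 in EEDcKO, 70.6 ± 38.7 in AireKO and 21.6 ± 11.2 in AireEEDdKO. Eed RNA averaged 29.1 ± 7.93 CPM in neonatal mTEChi Ctrl and 14.8 ± 4.63 in EEDcKO, and in mTEClo EEDcKO it differed from Ctrl by less than 2-fold (log2 -0.67). In 6 adult libraries, all 4 of mTEChi AireKO and replicates 3 and 4 of mTEClo AireKO, mitochondrial genes had 0 counts, against 6178 to 10339 in the other adult libraries. In adult mTEChi, genotype and this difference cannot be told apart.

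In adult mTEChi, loss of Aire went with lower RNA of 6 of the 10 genes and higher RNA of 0, beside 17.8% of all 19310 tested genes called lower and 5.63% called higher. The 6 were Trp73, Mcidas, Dynlrb2, Dnah5, Tekt1 and Ccdc39, so they took in both upstream regulators and axoneme parts, while Foxj1, Rfx2, Rfx3 and Dnah9 were not called. In sorted bulk cells, fewer cells of a type and less RNA per cell cannot be told apart. The replicates are separately labelled libraries, and p-values measure the spread between them.

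Mcidas, an early coactivator of the multiciliation cascade, ranged from 27.4 through a median of 40.8 to 53.6 CPM in the 7 WT libraries. In the 4 AireKO libraries it was at 0, 0.409, 0 and 0 CPM. The groups did not overlap, with 1 Mcidas read in all AireKO libraries against 754 in WT, a depth-scaled ratio of 406 with a 95% counting interval of 72.7 to 16072 (adjusted p = 6.47e-09). Trp73 ranged from 12.4 through 22.5 to 40.7 CPM in WT and was 0.439, 0.409, 1.71 and 0 CPM in AireKO. It fell by 5.07 ± 0.39 on the log2 scale (adjusted p = 3.90e-11), again with no overlap.

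Foxj1, the forkhead factor of motile cilia, did not follow them. It ranged from 12.4 through 37.8 to 78.2 CPM in WT and was 60.5, 44.2, 44.8 and 48 CPM in AireKO. The AireKO libraries lay inside the WT range, and the log2 difference was 0.01 ± 0.25 (95% interval -0.49 to 0.50, adjusted p = 0.985). The 2 WT libraries from mice of 4 weeks were the lowest, at 12.4 and 27.6 CPM, and without the libraries of that age the difference was -0.25 (adjusted p = 0.292). Rfx2 ranged from 22.3 through 36.6 to 56.4 CPM in WT against 45.2, 32.3, 28.4 and 29.2 in AireKO, with a log2 difference of -0.20 (95% interval -0.57 to 0.18). Rfx3 was at 56.8 through 65.1 to 79.3 CPM in WT and 41.7, 37.2, 42.1 and 37.2 CPM in AireKO, less than a 2-fold difference (log2 -0.74 ± 0.11, adjusted p = 2.40e-06). With a term for libraries without mitochondrial counts it passed the fold limit, at -1.11. That term is set by the mTEClo AireKO libraries alone, where it also goes with age (6 against 5 weeks). In mTEChi it cannot separate genotype from the lack of these counts.

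**Figure D1:**
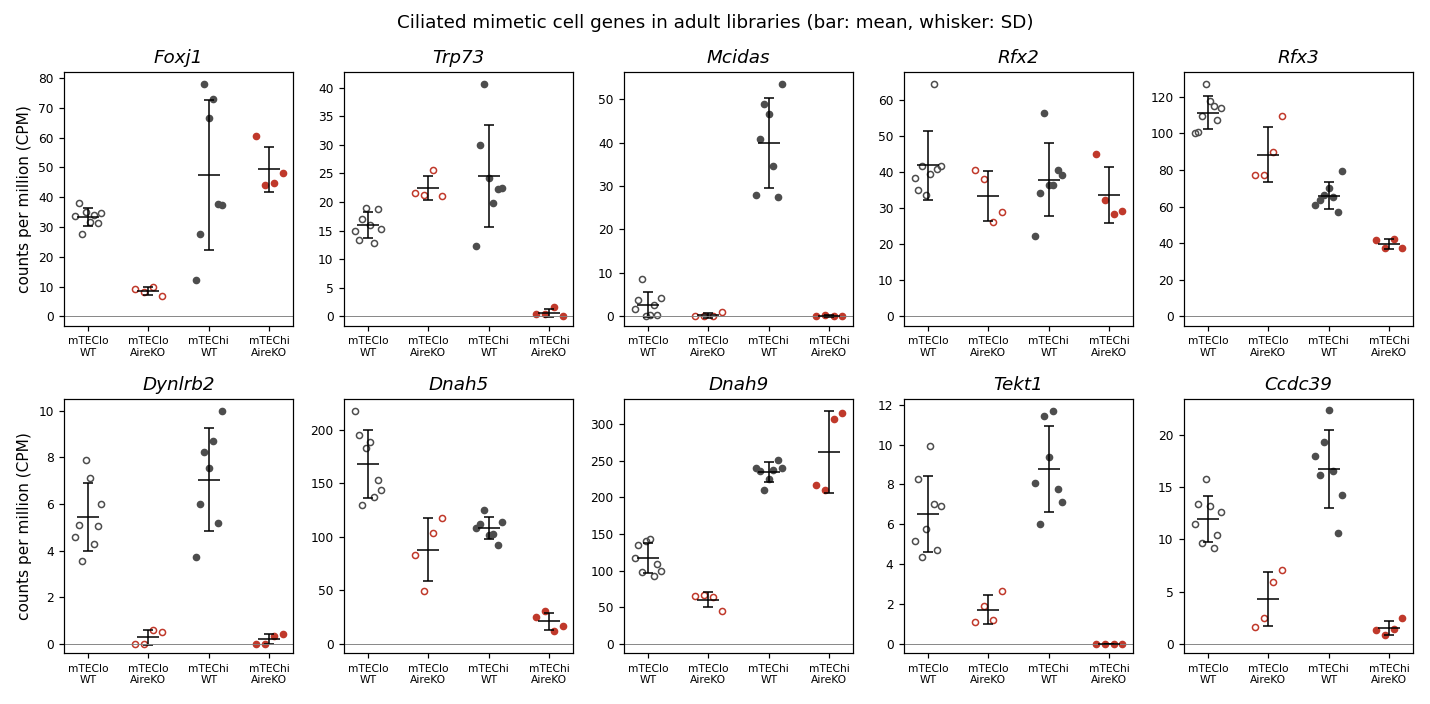
Each panel plots 1 gene in CPM on a linear axis, with 1 point per adult library, a bar at the group mean and a whisker of 1 SD. In mTEChi AireKO the points of Mcidas, Tekt1 and Dynlrb2 lie at or near 0, while those of Foxj1 lie between 44.2 and 60.5 CPM, inside the WT range.

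Among the axoneme genes, Tekt1 ranged from 6.00 through 8.05 to 11.7 CPM in WT and had 0 counts in every mTEChi AireKO library. Against 169 reads in WT, the counting interval put it at least 24.4-fold lower (adjusted p = 1.41e-09). Taking 3 counts over the AireKO group as the limit that 0 counts allow gave 30.4-fold. Dynlrb2 ranged from 3.72 through 7.55 to 10.0 CPM in WT and was 0, 0, 0.342 and 0.418 CPM in AireKO. The 2 Dynlrb2 reads of AireKO against 137 gave a ratio of 36.9 with a counting interval of 10.0 to 308 (adjusted p = 1.75e-08). Fitted log2 values of Tekt1, Mcidas and Dynlrb2 depend on the prior count and are no bound.

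Ccdc39 ranged from 10.6 through 16.5 to 22.4 CPM in WT and was 1.32, 0.818, 1.37 and 2.51 CPM in AireKO. It fell by 3.45 ± 0.34 on the log2 scale (adjusted p = 2.71e-09). The pair of outer-arm heavy chains parted company. Dnah5 fell from 92.3 through 108 to 125 CPM to 25.0, 30.3, 12.3 and 16.3 CPM (log2 -2.37 ± 0.22, adjusted p = 7.31e-10). Dnah9 was at 209 through 237 to 251 CPM in WT and 216, 210, 306 and 315 CPM in AireKO, a log2 difference of 0.16 ± 0.13 (adjusted p = 0.280). The Dnah9 groups overlapped, and no Dnah5 value of AireKO reached the WT range.

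Markers of other cells differed between the same libraries of adult mTEChi. The 9 thymocyte genes summed to 83.9 to 118 CPM in WT and 45.2 to 58.1 in AireKO, with 5 of 6 tested called lower. The 7 mesenchymal genes ran from 199 to 370 CPM in WT and from 194 to 212 in AireKO, with 4 called lower and 1 higher. The 7 cTEC (cortical epithelial) genes summed to 566 to 645 CPM in WT and 649 to 789 in AireKO, although 2 of 7 were called lower and 0 higher. The 7 myeloid and B-cell genes summed to 239 to 292 and 320 to 365 CPM, with 3 of 6 tested called lower and 0 higher. Endothelial sums overlapped, at 40.8 to 69.4 and 44.2 to 67.1 CPM. Of 6 genes of mTEC identity 0 were called, and their sum was 1530 to 1908 CPM in WT and 1385 to 1620 in AireKO. Spermatid genes, read because sperm tails share axoneme parts, summed to 16.8 to 32.8 CPM in WT and 26.8 to 41.4 in AireKO, where Tnp1, Odf1 and Akap4 were at 0. The part of these values in the results on the 10 genes was not tested.

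In adult mTEClo, 5 of the 10 genes were called lower in AireKO and 0 higher, beside 3.88% and 4.42% of all tested genes. Here Foxj1 was among them. It ranged from 27.8 through 34.0 to 38.2 CPM in the 8 WT libraries and was 9.20, 8.14, 9.83 and 6.80 CPM in the 4 AireKO libraries. Foxj1 thus fell by 1.98 ± 0.33 on the log2 scale (adjusted p = 5.68e-05) with no overlap, and by 1.91 among libraries with mitochondrial counts. In mTEClo AireKO those libraries are replicates 1 and 2 alone.

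Dynlrb2 ranged from 3.57 through 5.06 to 7.87 CPM in WT and was 0, 0, 0.596 and 0.486 CPM in AireKO (log2 -3.77 ± 0.48, adjusted p = 1.64e-06). Tekt1 ranged from 4.33 through 6.33 to 9.93 CPM in WT and was 1.08, 1.88, 1.19 and 2.67 CPM in AireKO (log2 -1.82 ± 0.33, adjusted p = 0.000223). Ccdc39 ranged from 9.15 through 12 to 15.7 CPM and fell to 1.62, 2.50, 5.96 and 7.04 CPM (log2 -1.29 ± 0.27, adjusted p = 0.000740). None of these 3 genes overlapped between the groups. For Mcidas, WT already ran from 0 through 2.23 to 8.67 CPM and AireKO was 0, 0, 0 and 0.971 CPM. Its groups overlapped, and the call (log2 -2.78 ± 1.00, adjusted p = 0.0416) was lost in 9 of the 20 alternatives that tested it.

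Both outer-arm chains were lower by less than 2-fold in mTEClo. Dnah5 ranged from 130 through 168 to 218 CPM in WT and was 82.8, 48.8, 103 and 117 CPM in AireKO (log2 -0.89 ± 0.18, adjusted p = 0.000453). Dnah9 ranged from 92.4 through 113 to 143 CPM and was 65.5, 67.0, 64.0 and 44.9 CPM in AireKO (log2 -0.97 ± 0.14, adjusted p = 9.47e-06). Both had AireKO values below every WT library. Both lie close to the fold limit. Dnah5 passed it without AireKO replicate 4 (-1.07) and among libraries with mitochondrial counts (-1.31). Dnah9 passed it without WT replicate 3, 6 or 8 or AireKO replicate 1, 2 or 3 (-1.03 to -1.005). Rfx3 was lower by less than 2-fold (log2 -0.32, adjusted p = 0.0161), and Rfx2 missed the test at -0.37 (95% interval -0.74 to 0.00, adjusted p = 0.150). Trp73 went the other way without passing the test, at 12.8 through 15.7 to 18.9 CPM in WT and 21.7, 21.3, 25.6 and 21.1 CPM in AireKO (log2 0.49 ± 0.21, adjusted p = 0.0895). Every Trp73 value of AireKO was above the WT range.

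Markers of other cells differed in both directions in mTEClo AireKO. The 7 cTEC genes summed to 487 to 595 CPM in WT and 663 to 835 in AireKO, with 4 called higher. The 7 myeloid and B-cell genes summed to 27.5 to 60.4 and 85.8 to 117 CPM, with 1 of 6 tested called lower and 1 higher. Endothelial genes summed to 30.9 to 59.3 CPM in WT and 47.6 to 89.4 in AireKO, which overlap, with 0 of 3 tested called. Mesenchymal sums overlapped too, at 64.2 to 97.7 and 76.9 to 194 CPM, with 1 of 7 called higher. Thymocyte genes were at 28.7 to 40.7 CPM in WT and 16.9 to 30.3 in AireKO, with 1 of 6 tested called lower. Their part in the results was not tested.

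**Figure D2:**
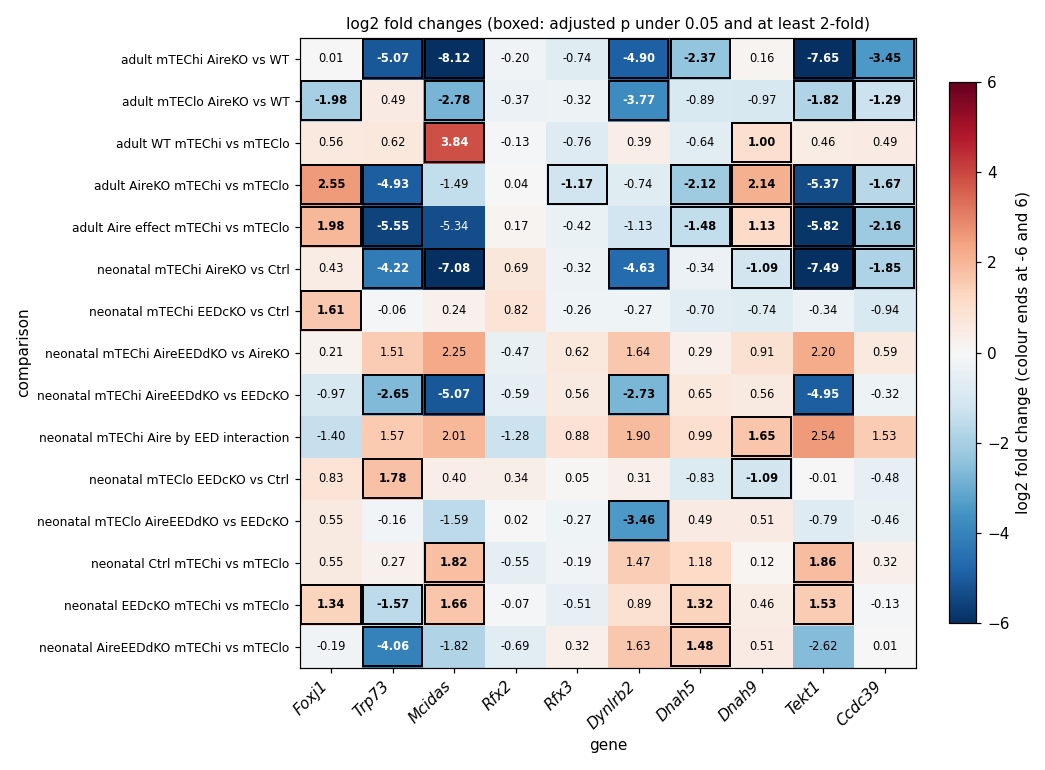
Rows are the 15 comparisons and columns the 10 genes, and each cell prints and colours a log2 fold change, boxed where the adjusted p was under 0.05 and the change at least 2-fold. In the row of adult mTEChi AireKO against WT, Mcidas stands at -8.12 and Foxj1 at 0.01.

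The difference of the Aire effect between the fractions was tested as an interaction in the adult table. It was called for 6 of the 10 genes, negative for 4 and positive for 2, beside 11% and 2.7% of all tested genes. Negative marks a log2 change with Aire loss that lay lower in mTEChi than in mTEClo, and positive the reverse. The log2 effect in mTEChi minus that in mTEClo was -5.55 ± 0.46 for Trp73 (adjusted p = 1.47e-09) and -5.82 ± 1.01 for Tekt1 (adjusted p = 0.000123). It was -2.16 ± 0.47 for Ccdc39 (adjusted p = 0.000982) and -1.48 ± 0.27 for Dnah5 (adjusted p = 0.000195). The Tekt1 value rests on 0 counts in mTEChi AireKO. The 2 in the other direction were Foxj1 (1.98 ± 0.41, adjusted p = 0.000688) and Dnah9 (1.13 ± 0.19, adjusted p = 4.76e-05). Mcidas (-5.34 ± 2.41, adjusted p = 0.106) and Dynlrb2 (-1.13 ± 1.05, adjusted p = 0.472) were near 0 in AireKO in both fractions and were not called. The Mcidas difference depended on the method, since DESeq2 called it (-5.31, adjusted p = 0.0113), as did edgeR without a filter on low counts (-5.34, adjusted p = 0.0455). It was also called without mTEClo WT replicate 3 (-6.03, adjusted p = 0.0342) and without the mice of 4 weeks (-5.55, adjusted p = 0.0346).

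The fractions were also compared within each genotype. Between mTEChi and mTEClo of adult WT mice, 2 genes were called higher in mTEChi and 0 lower, beside 23.7% and 12.4% of all tested genes. Mcidas rose by 3.84 ± 0.37 (adjusted p = 2.61e-10) and Dnah9 by 1.00 ± 0.11 (adjusted p = 1.94e-09), from the values above. Dnah9 sits on the 2-fold limit and was called in 15 of 24 alternatives. Foxj1 (0.56), Trp73 (0.62), Ccdc39 (0.49), Rfx3 (-0.76) and Dnah5 (-0.64) passed the adjusted p with less than 2-fold differences. Thymocyte, mesenchymal, and myeloid and B-cell sums were 83.9 to 118, 199 to 370 and 239 to 292 CPM in mTEChi WT. In mTEClo WT they were 28.7 to 40.7, 64.2 to 97.7 and 27.5 to 60.4 CPM. Sums of cTEC and endothelial genes overlapped. The part of these markers was not tested.

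In adult AireKO mice, 5 genes were called lower in mTEChi than in mTEClo and 2 higher, beside 16.7% and 18.5% of all tested genes. The log2 difference was -4.93 ± 0.42 for Trp73, -2.12 ± 0.23 for Dnah5, -1.67 ± 0.43 for Ccdc39 and -1.17 ± 0.12 for Rfx3. Tekt1, also called lower, had 0 reads in mTEChi against 20 in mTEClo. The counting interval put it at least 4.54-fold lower, and 3 counts over the group as the limit gave 6.13-fold. The log2 difference was 2.55 ± 0.35 for Foxj1 and 2.14 ± 0.16 for Dnah9. The largest adjusted p of the 7 was 0.00140, for Ccdc39.

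Per kilobase of exon, which allows levels of different genes to be compared, Foxj1 led in adult mTEChi WT at 18.1 ± 9.56 CPM per kb. It was followed by Mcidas at 16.8 ± 4.35, Dnah9 at 14.7 ± 0.84 and Dynlrb2 at 12.7 ± 3.94, neighbours that lay within 1 SD of each other. Then came Dnah5 at 6.90 ± 0.67, Rfx3 at 5.98 ± 0.66, Tekt1 at 5.41 ± 1.33, Rfx2 at 5.20 ± 1.38 and Trp73 at 4.44 ± 1.6, again with overlapping spreads between neighbours, and Ccdc39 was lowest at 2.25 ± 0.50. In mTEChi AireKO the order was led by Foxj1 at 18.8 ± 2.90 and Dnah9 at 16.4 ± 3.52 CPM per kb, with Mcidas at 0.04 and Tekt1 at 0. In mTEClo WT, Foxj1 (12.7 ± 1.18), Dnah5 (10.8 ± 2.03), Rfx3 (10.1 ± 0.82) and Dynlrb2 (9.79 ± 2.63) stood highest and Mcidas (1.14 ± 1.22) lowest.

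In neonatal mTEChi, 6 of the 10 genes were lower in AireKO than in Ctrl and 0 higher, beside 12.8% and 3.56% of all 20196 tested genes. The tables were fitted apart, so age and table cannot be told apart. The genes were Trp73, Mcidas, Dynlrb2, Dnah9, Tekt1 and Ccdc39. Of these, 5 were also called in adult mTEChi, with Dnah9 in the place of Dnah5. Whether the adult and neonatal effects differ was not tested.

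Mcidas was 35.4, 23.1, 21.5, 21.1 and 33.5 CPM in the 5 Ctrl libraries and 0.685, 0 and 0 CPM in the 3 AireKO libraries. With 1 read against 404 the ratio was 171 (95% counting interval 30.6 to 6788, adjusted p = 4.60e-05). Trp73 was 12.9, 16.2, 14, 16.9 and 15.2 CPM in Ctrl and 0.685, 0.689 and 0.848 CPM in AireKO (log2 -4.22 ± 0.36, adjusted p = 1.34e-07). Both regulators separated the groups fully. Tekt1 was 11.8, 8.09, 5.78, 5.81 and 6.79 CPM in Ctrl and had 0 counts in all 3 AireKO libraries. The 95% counting interval put it at least 12.1-fold lower (adjusted p = 5.17e-05), and 3 counts over the group as the limit gave 15.1-fold. Dynlrb2 was 6.75, 5.78, 3.30, 3.43 and 6.09 CPM in Ctrl and 0, 0.689 and 0 in AireKO, a ratio of 31.0 with a counting interval of 5.39 to 1240 (adjusted p = 0.00247). Neither axoneme gene overlapped between the groups.

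Ccdc39 was 17.4, 13.9, 9.08, 11.6 and 17.6 CPM in Ctrl against 4.8, 2.07 and 4.24 in AireKO (log2 -1.85 ± 0.38, adjusted p = 0.00110). Dnah9 was 132, 130, 156, 148 and 153 CPM in Ctrl against 82.9, 59.2 and 62.4 in AireKO (log2 -1.09 ± 0.18, adjusted p = 0.000158). Dnah5 was 95.1, 113, 122, 97.4 and 140 CPM in Ctrl against 104, 76.4 and 89.6 in AireKO (log2 -0.34 ± 0.47, adjusted p = 0.630). The Dnah5 groups overlapped and its interval ran from -1.26 to 0.58, while Ccdc39 and Dnah9 did not overlap. Foxj1 was 19.1, 19.1, 15.4, 11.9 and 25.1 CPM in Ctrl and 36.3, 13.1 and 23.7 CPM in AireKO, which overlap (log2 0.43 ± 0.31, adjusted p = 0.319). Rfx2 (0.69, adjusted p = 0.0850) and Rfx3 (-0.32, adjusted p = 0.123) were not called.

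Other cell markers differed here as well. Thymocyte genes summed to 96 to 119 CPM in neonatal mTEChi Ctrl and 55.5 to 90.2 in AireKO, with 1 of 7 tested called lower, and endothelial genes to 42.7 to 67.4 and 39.3 to 40.4 CPM, with 1 of 4 tested called lower. Neither sum overlapped. Mesenchymal sums overlapped, at 249 to 333 and 250 to 351 CPM, with 4 of 7 called lower and 2 higher. So did myeloid and B-cell sums, at 225 to 250 and 225 to 346 CPM, with 3 of 7 called lower, and cTEC sums, at 507 to 1188 and 626 to 808 CPM, with 1 of 7 called lower. Their part in the results was not tested.

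**Figure D3:**
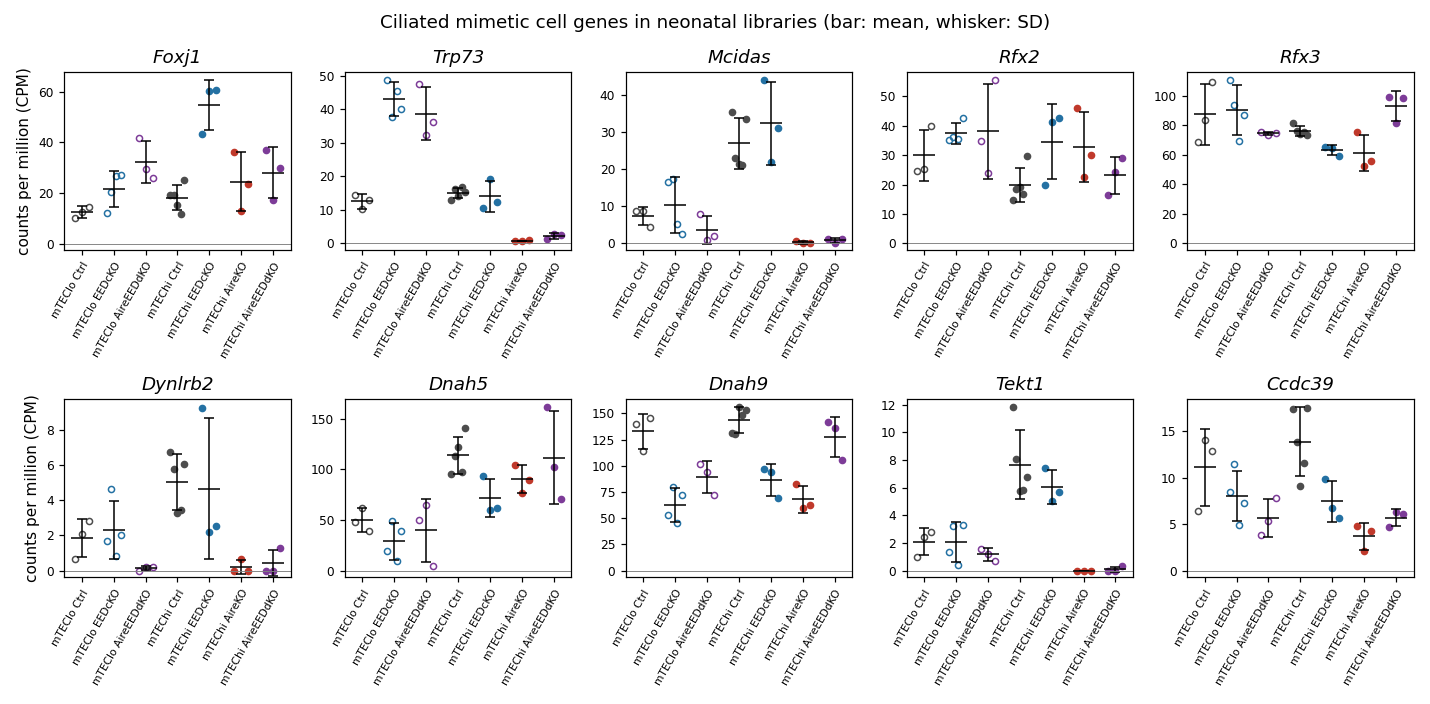
Each panel plots 1 gene in CPM on a linear axis, with 1 point per neonatal library in its group, a bar at the mean and a whisker of 1 SD. Tekt1 and Mcidas lie at or near 0 in mTEChi AireKO and AireEEDdKO, and Foxj1 is highest in mTEChi EEDcKO, at 43.4 to 60.7 CPM.

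Deletion of Eed alone in neonatal mTEChi was accompanied by a rise of 1 of the 10 genes and a fall of 0, beside 8.48% and 5.4% of all tested genes. The gene was Foxj1, at 43.4, 60.1 and 60.7 CPM in EEDcKO against 11.9 to 25.1 CPM in Ctrl. It rose by 1.61 ± 0.28 on the log2 scale (adjusted p = 0.000177), and no library overlapped. Rfx2 was 19.8, 41.3 and 42.8 CPM against 14.6 to 29.7 in Ctrl and passed the adjusted p with a smaller change (0.82 ± 0.28, adjusted p = 0.0309). Ccdc39, at 9.91, 6.78 and 5.66 CPM (log2 -0.94 ± 0.33, adjusted p = 0.0333), and Dnah9, at 96.6, 93.6 and 68.9 CPM (log2 -0.74 ± 0.17, adjusted p = 0.00237), were lower by less than 2-fold. For Trp73 (-0.06, 95% interval -0.46 to 0.34), Mcidas (0.24, -0.65 to 1.13) and Tekt1 (-0.34, -1.16 to 0.49) no difference was detected. This comparison shares its Ctrl libraries with that of AireKO. Mesenchymal genes summed to 249 to 333 CPM in mTEChi Ctrl and 497 to 781 in EEDcKO, with 3 of 7 called higher, and cTEC genes to 507 to 1188 and 368 to 484, with 1 of 7 called lower. Endothelial genes summed to 30.8 to 35.0 CPM in EEDcKO, below every Ctrl library, and thymocyte genes to 48.3 to 103. Their part was not tested.

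Loss of Aire was also read on the Eed-deleted background, where members differed in both directions. Between AireEEDdKO and EEDcKO, 4 of the 10 genes were called lower and 0 higher, beside 8.36% and 4.99% of all tested genes. Trp73 was 1.18, 2.89 and 2.57 CPM against 10.5, 19.2 and 12.3 (log2 -2.65 ± 0.31, adjusted p = 6.68e-06). Mcidas was 1.18, 0 and 1.28 CPM against 44.0, 21.9 and 31.1 (log2 -5.07 ± 0.81, adjusted p = 0.000147). Both fell without overlap. Tekt1 had 1 read against 53, a ratio of 37.0 (counting interval 6.37 to 1491, adjusted p = 0.000491). Dynlrb2 was 0, 0 and 1.28 CPM against 9.29, 2.19 and 2.52 (log2 -2.73 ± 0.89, adjusted p = 0.0297). Of the 11 alternatives that tested it, 3 lost this call. Foxj1 was just under the fold limit, at 37.1, 17.3 and 29.8 CPM against 43.4, 60.1 and 60.7 (log2 -0.97 ± 0.32, adjusted p = 0.0319). Foxj1 passed that limit in 6 alternatives. They were library size alone as the scaling (-1.10), all genes kept whatever their counts (-1.03), and only the groups compared (-1.01). The others were the replicate block (-1.05) and the fits without EEDcKO replicate 1 (-1.10) or AireEEDdKO replicate 1 (-1.19). Equal replicate numbers do not join mice of the same age in these groups. In the other direction, Rfx3 (log2 0.56 ± 0.17, adjusted p = 0.0181) and Dnah9 (log2 0.56 ± 0.19, adjusted p = 0.0383) were higher in AireEEDdKO by less than 2-fold, without overlap. Dnah5 was at 0.65 ± 0.53 (adjusted p = 0.399).

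Between AireEEDdKO and AireKO, 0 of the 10 genes were called by edgeR and 0 by DESeq2, beside 2.78% of all tested genes called lower and 6.69% called higher. At an unadjusted p under 0.05 there were 3 members. Dnah9 was 141, 136 and 106 CPM against 82.9, 59.2 and 62.4 (log2 0.91 ± 0.20, adjusted p = 0.00278) and Rfx3 was 99.5, 81.5 and 98.8 CPM against 75.4, 52.3 and 55.9 (log2 0.62 ± 0.17, adjusted p = 0.0139). The AireEEDdKO libraries were higher in both genes without overlap, by less than 2-fold. Trp73 (log2 1.51 ± 0.53) had an adjusted p of 0.104. Mesenchymal genes summed to 421 to 735 CPM in AireEEDdKO, above the AireKO libraries, with 3 of 7 called higher, and their part was not tested. The interaction of both losses was called for 1 gene in the higher direction and for 0 in the lower, beside 0.807% and 0.446% of all tested genes. It was Dnah9, whose change with Eed loss was higher by 1.65 ± 0.26 without Aire than with it (adjusted p = 0.00378). That of Foxj1 was -1.40 ± 0.45 (adjusted p = 0.108).

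Among neonatal mTEClo libraries, 1 gene was lower and 1 higher in EEDcKO than in Ctrl, beside 6.22% and 9.51% of all tested genes. Trp73 was 48.8, 37.7, 45.6 and 40.1 CPM in EEDcKO against 14.5, 10.2 and 12.9 in Ctrl, a rise of 1.78 ± 0.21 on the log2 scale (adjusted p = 2.00e-06). Dnah9 was 53.2, 79.8, 45.2 and 72.4 CPM against 139, 114 and 145 and fell by 1.09 ± 0.18 (adjusted p = 9.08e-05). The groups of both genes stood fully apart. Dnah5 spread widely within EEDcKO, at 18.9, 48.5, 8.96 and 38.6 CPM against 48.3, 62.1 and 38.8 in Ctrl, and was not called (log2 -0.83 ± 0.52, adjusted p = 0.237).

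The same mTEClo libraries differed in other cell markers. The 7 cTEC genes summed to 2483 to 3736 CPM in Ctrl and 440 to 1132 in EEDcKO, with 7 of 7 called lower. The 7 mesenchymal genes summed to 132 to 135 CPM and 564 to 840 CPM, with 6 of 7 called higher. Their part in the results was not tested. Between mTEClo AireEEDdKO and EEDcKO, 1 gene was lower and 0 higher, beside 1.85% and 3.45%. It was Dynlrb2, with 2 reads against 30, a ratio of 12.9 (counting interval 3.27 to 111, adjusted p = 0.0259). Trp73 stayed at 47.6, 32.2 and 36.3 CPM in mTEClo AireEEDdKO, with a log2 difference of -0.16 (95% interval -0.52 to 0.20), while in mTEChi of that genotype it lay at 1.18 to 2.89 CPM.

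Between the neonatal fractions, Ctrl had 2 genes higher in mTEChi and 0 lower, beside 13.8% and 6.92% of all tested genes. They were Mcidas (1.82 ± 0.53, adjusted p = 0.0106) and Tekt1 (1.86 ± 0.50, adjusted p = 0.00709). Dnah5 was higher in every mTEChi library than in any mTEClo library of Ctrl, but missed the test (1.18 ± 0.49, adjusted p = 0.0600). It was called with only the groups compared (adjusted p = 5.81e-05), without a filter on low counts (adjusted p = 0.00407) and with library size alone (adjusted p = 0.0491). The replicate block called it too (adjusted p = 0.00105), but equal numbers join mice of different ages here, so that fit does not pair the fractions. Each Ctrl mTEClo library and each EEDcKO mTEChi library has a counterpart of the same age and sex in the other fraction, under another number. No fit paired these counterparts, and whether they share animals is not known here. In EEDcKO, 4 genes were higher and 1 lower, beside 14.2% and 7.67%. The higher ones were Foxj1 (1.34 ± 0.29), Mcidas (1.66 ± 0.50), Dnah5 (1.32 ± 0.51) and Tekt1 (1.53 ± 0.48), and the lower one was Trp73 (-1.57 ± 0.20). The Dnah5 call was lost in 5 of 14 alternatives, and whether its difference varies with genotype was not tested. In AireEEDdKO, 1 gene was higher and 1 lower, beside 10.4% and 10.6%. Trp73 was lower in mTEChi (-4.06 ± 0.29, adjusted p = 1.48e-08) and Dnah5 was higher (1.48 ± 0.53, adjusted p = 0.0311), with mTEClo values of Dnah5 spread from 4.17 to 64.5 CPM. Marker sums of other cells also differed between the Ctrl fractions. Genes of cTECs summed to 507 to 1188 CPM in mTEChi and 2483 to 3736 in mTEClo. Thymocyte, mesenchymal, endothelial, and myeloid and B-cell sums were higher in mTEChi Ctrl, without overlap. The part of these markers was not tested.

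**Figure D4:**
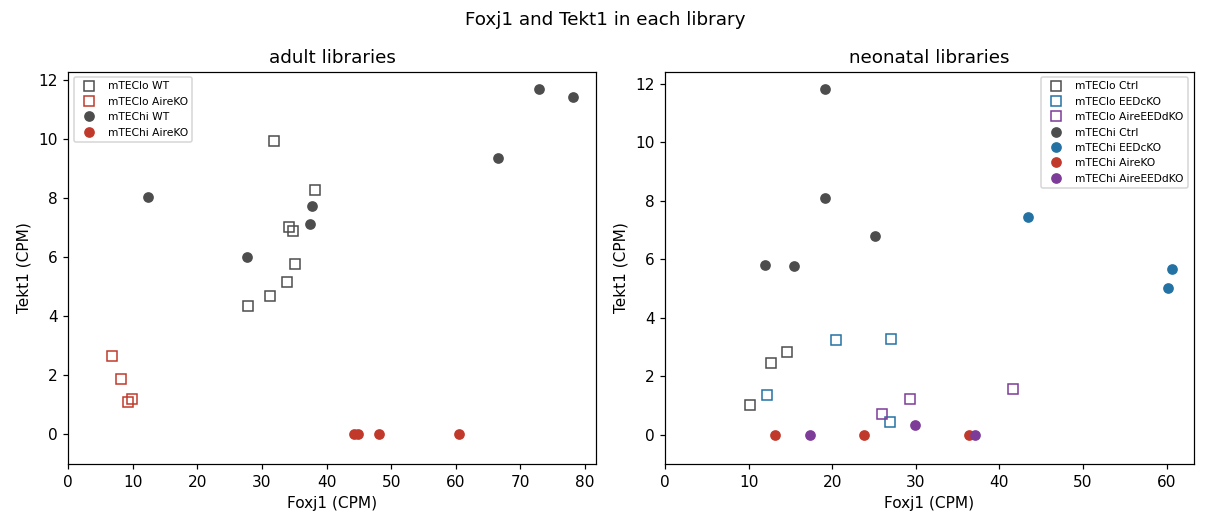
Each point is 1 library, with Foxj1 on the x axis and Tekt1 on the y axis in CPM, adult libraries on the left and neonatal on the right, filled circles for mTEChi and open squares for mTEClo. The adult mTEChi AireKO libraries lie at 0 for Tekt1 while Foxj1 reaches 44.2 to 60.5 CPM.

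Across the 23 adult libraries, Foxj1 and Tekt1 had a Pearson correlation of 0.14 on the log2 scale, and 0.33 after removal of group means. Tekt1 and Dynlrb2 were among the genes closest to the mean pattern of the 10 genes, with r = 0.95 and 0.96, a mean that contains them, while Foxj1 had 0.38 and Dnah9 0.13. These are descriptions over libraries that share groups and depth. The genes outside the list closest to that mean in adults were Crocc2 (r = 0.963), a ciliary rootlet protein relative, Cfap69 (0.949), a protein of the axonemal central apparatus, Ccdc187 (0.944), Cfap52 (0.935), Prom1 (0.934), Zbbx (0.933), Tspan15 (0.932) and Cfap57 (0.930). Over the 24 neonatal libraries they were Zfp474 (0.864), Lrguk (0.857), Crocc2 (0.849), Spata18 (0.846), Cfap206 (0.846), Zmynd10 (0.841), a dynein-arm assembly factor, Ccdc187 (0.839) and Alx4 (0.834). Crocc2 and Ccdc187 were in both sets.

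Of 76 other motile cilium genes, 46 of 73 tested were lower and 0 higher in adult mTEChi AireKO than in WT (median log2 -1.67, against -0.01 over all genes). In adult mTEClo AireKO, 44 of 73 were lower and 0 higher (median -1.41, against 0.00), and in neonatal mTEChi AireKO 39 of 71 were lower and 0 higher (median -1.28, against 0.03). The corresponding shares of all genes are those printed above for each comparison. Of 24 genes of intraflagellar transport and the BBSome, which also serve primary cilia, 1 was lower in adult mTEChi AireKO (Bbs7, -1.16), 0 in adult mTEClo AireKO and 0 in neonatal mTEChi AireKO, and 0 were higher in any of these. In mTEChi EEDcKO, 5 of 71 motile cilium genes were lower and 0 higher, and between AireEEDdKO and AireKO 2 were lower and 4 higher.

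Among 7 further regulators of ciliogenesis, 5 were lower in adult mTEChi AireKO, 1 in adult mTEClo AireKO and 4 in neonatal mTEChi AireKO. Ccno, which drives centriole amplification, averaged 23.2 ± 9.22 CPM in adult mTEChi WT and 0.645 ± 0.765 in AireKO (log2 -5.20 ± 0.49, adjusted p = 1.23e-09). Gmnc, which acts upstream of Mcidas, averaged 24.0 ± 4.82 and 2.83 ± 0.990 CPM (log2 -3.09 ± 0.30, adjusted p = 2.14e-09). In mTEClo the levels of both were low, with Ccno at 2.31 ± 1.07 in WT and 2.94 ± 1.09 in AireKO, and neither was called. Myb, a regulator also used in other cells, averaged 156 ± 14.4 and 156 ± 11 CPM in mTEChi WT and AireKO.

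The 11 inner-arm dynein genes were lower in 10 cases in adult mTEChi AireKO, in 9 in adult mTEClo AireKO and in 7 in neonatal mTEChi AireKO. Dnah10, an inner-arm heavy chain, averaged 71.9 ± 16.6 CPM in adult mTEChi WT and 9.98 ± 2.06 in AireKO, and 54.3 ± 17.9 and 3.43 ± 1.17 CPM in mTEClo (log2 -2.85 ± 0.26 and -4.08 ± 0.32). Dnah3 averaged 31.8 ± 12 CPM in mTEClo WT and 0.270 ± 0.315 in AireKO (log2 -6.29 ± 0.56). Of 8 outer-arm and docking genes, 3 were lower in adult mTEChi AireKO and 3 in adult mTEClo AireKO. Dnaic2, an outer-arm intermediate chain, was at 95.5 ± 11.1 CPM in mTEChi WT and 142 ± 9.23 in AireKO, higher by less than 2-fold. Neither it nor Dnah9 was called there.

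Radial spoke and central pair genes were lower in 4 of 8 cases in adult mTEChi AireKO and in 6 of 8 in adult mTEClo AireKO. Hydin, a central pair protein, fell less with Aire loss in mTEChi than in mTEClo, by log2 1.81 ± 0.31 (adjusted p = 8.57e-05). It went from 61.2 ± 11 to 37.4 ± 6.34 CPM in mTEChi and from 30.1 ± 6.50 to 4.58 ± 2.73 CPM in mTEClo. Spag6l, of the same apparatus, averaged 19.0 ± 3.02 and 16.9 ± 1.85 CPM in mTEChi WT and AireKO and 9.58 ± 3.55 and 1.64 ± 0.708 CPM in mTEClo. Its effect differed by 2.28 ± 0.40 in the same direction as for Foxj1 and Dnah9. Cfap44 went the other way (-3.42 ± 0.59), at 23.7 ± 5.64 and 0.791 ± 0.589 CPM in mTEChi and 35.2 ± 12.3 and 13.5 ± 3.84 CPM in mTEClo. Over the 73 tested genes, the interaction was called negative for 12 and positive for 14.

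**Figure D5:**
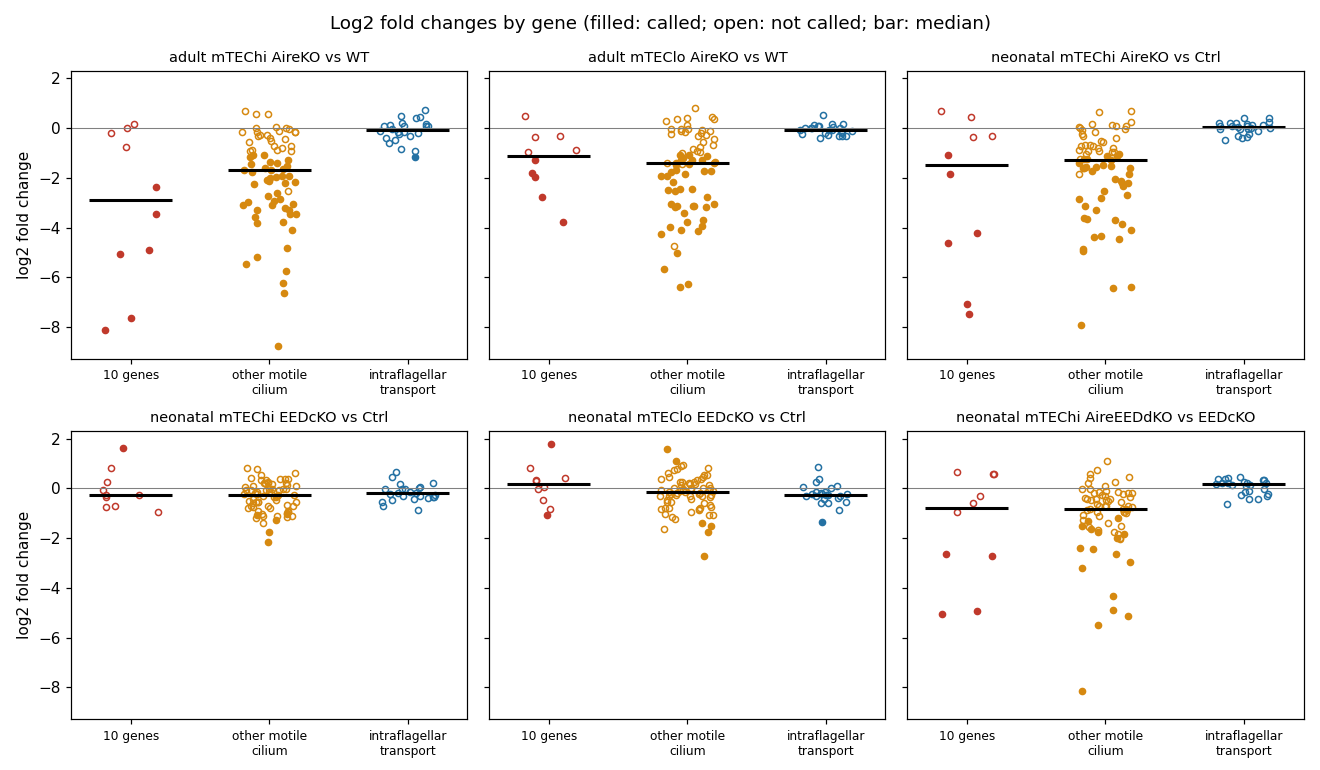
Each panel is 1 comparison and plots the log2 fold change of every tested gene of the 10, the other motile cilium genes and the intraflagellar transport genes, filled where called, with a bar at the median. In adult mTEChi AireKO the medians lie at -2.91, -1.67 and -0.08.

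Paralogs of the members were mostly not called. Of Trp63, Trp53, Rfx1, Rfx4, Rfx5, Rfx7, Gmnn and Dynlrb1, 1 was lower in adult mTEChi AireKO (Rfx4, -3.52 ± 0.52, adjusted p = 1.97e-06), 0 in adult mTEClo AireKO and 1 in neonatal mTEChi AireKO (Rfx4, -3.67 ± 0.78, adjusted p = 0.00144). In mTEChi EEDcKO, Gmnn, the geminin gene that gives the family of Mcidas its name, fell by 1.61 and Rfx4 by 1.49, while Rfx1 rose by 1.00. In mTEClo EEDcKO, Gmnn fell by 1.33.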

How the data were processed

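The authors deposited whole read counts per Ensembl gene for 23 adult and 24 neonatal libraries. According to the methods and the submitters' processing notes, they made these counts from full-length total RNA libraries by trimming reads with fastp 0.20.0, mapping to mm10 with STAR 2.7.3a, filtering on mapping quality with SAMtools 1.9, duplicate removal by Picard 2.21.1 and counting with HTSeq 0.11.2 regardless of strand. The annotation release is not given in the sources used here. Without molecular identifiers, taking out duplicates can lower the counts of abundant transcripts. The authors' normalized tables were not used.

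Counts were analysed with edgeR 4.0.16 in R 4.3.3. Genes passed filterByExpr (19310 adult, 20196 neonatal), TMM scaled the libraries, and 1 quasi-likelihood model per table took in all its groups. Group means were contrasted by the 2-sided quasi-likelihood F-test, with Benjamini-Hochberg adjustment over all tested genes. Intervals cover 95% and are Wald intervals of the log2 fold change. Intervals of count ratios and the limit of 3 counts at 0 cover counting error only. DESeq2 1.42.0, other scalings, filters, covariates and left-out libraries were alternatives. Gene positions and exonic lengths came from GENCODE vM21 on GRCm38, and promoters from RefSeq. The fit was tested on simulated counts with 200 genes changed 4-fold. It recovered 91.5% in adult mTEChi AireKO against WT (19310 genes, 3 false calls) and 83% in neonatal mTEChi EEDcKO against Ctrl (20196 genes, 8 false calls).

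Groups came from the sample titles. No 2 libraries of a group held the same counts (lowest chi-square per degree of freedom 1.23). The members and the gene lists were chosen with earlier results of these data known. Named genes outside the 10 were, for each comparison, up to 3 called in each direction with the smallest p among the other motile cilium genes, and the 8 genes closest to the members' mean, besides regulators, paralogs and Bbs7, which were named after their values were seen.

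Libraries with the same replicate number deviated together, with every pair's correlation over 0.1, in 3 comparisons, where they also share the age of the mice. They were adult AireKO mTEChi against mTEClo (0.173 to 0.316), neonatal mTEChi AireEEDdKO against AireKO (0.205 to 0.3) and neonatal AireEEDdKO mTEChi against mTEClo (0.348 to 0.481).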

Additional observations from a re-analysis of the deposited data

Results flagged for a closer look

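Of 59 groups of 4 to 10 libraries read for a value far from the others, 6 were marked by Dixon's criterion. Normally spread values meet it by chance in about 1 of 20, a rate that does not hold for counts near 0. Trp73 was 25.61 CPM in adult mTEClo AireKO replicate 3, against 21.1 to 21.7 in the other 3. Mcidas was 0.9713 CPM in adult mTEClo AireKO replicate 4 and 0.4092 in mTEChi AireKO replicate 2, with 0 in the other libraries of each group. With the others at 0, any read at all would have been marked. Rfx2 was 64.68 CPM in adult mTEClo WT replicate 6, against 33.8 to 41.8 in the other 7, and 42.65 in neonatal mTEClo EEDcKO replicate 4, against 35 to 36.3. Dnah9 was 44.92 CPM in adult mTEClo AireKO replicate 4, against 64 to 67 in the other 3.

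The Aire effect differed between adult mTEChi and mTEClo by the interaction test of edgeR for 6 genes. The log2 differences were 1.983 for Foxj1, -5.553 for Trp73, -1.481 for Dnah5, 1.132 for Dnah9, -5.823 for Tekt1 and -2.159 for Ccdc39. In neonatal mTEChi the change of Dnah9 with Eed loss differed with Aire by 1.648. All mTEChi AireKO libraries of the adult set lack mitochondrial counts, as do 2 of the 4 mTEClo AireKO libraries. The part of this in the adult differences was not tested. A fit with a term for it sets that term from the mTEClo AireKO libraries alone.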

How the results depend on the processing

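Of 50 calls of the 10 genes over the 15 comparisons, 39 held in every alternative run that tested the gene. Runs whose filter removed the gene are left out of this count. No called value changed sign in any run. The number of members called moved by more than 1.5 times in 8 of 116 runs other than those that left out a library. Without a filter on low counts it was 1 for adult WT mTEChi against mTEClo and 2 for neonatal mTEClo AireEEDdKO against EEDcKO. With only the groups compared in the fit, it was 0 for neonatal mTEClo AireEEDdKO against EEDcKO, and between the neonatal fractions 4 in Ctrl, 2 in EEDcKO and 1 in AireEEDdKO. With the replicate number as a block, it was 0 for neonatal mTEClo AireEEDdKO against EEDcKO and 3 for neonatal EEDcKO mTEChi against mTEClo, where the numbers do not pair the libraries. In both fits that gave 0, Dynlrb2, the member called in the main fit, did not pass the filter. The cause of the other changes was not tested.

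In the 3 comparisons where the replicate numbers pair the libraries, the block changed no call of a member that its fit tested. For adult AireKO mTEChi against mTEClo it called 5 members, since Tekt1 and Ccdc39 did not pass the filter with only those groups. It called 0 for neonatal mTEChi AireEEDdKO against AireKO and 2 for neonatal AireEEDdKO mTEChi against mTEClo. In the other comparisons pairs of equal number correlated at -0.375 to 0.185. Equal numbers there mostly join mice of different age or sex, so these values do not show whether libraries share animals. In adult mTEClo AireKO against WT, the block moved Dnah5 (-1.02) and Dnah9 (-1.03) past the 2-fold limit.

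Leaving out 1 library at a time gave, for AireKO against WT, 6 to 6 members called in adult mTEChi and 4 to 6 in mTEClo, and 6 to 6 in neonatal mTEChi AireKO against Ctrl. It gave 1 to 3 for mTEChi EEDcKO against Ctrl, 0 to 1 for mTEChi AireEEDdKO against AireKO, 3 to 4 against EEDcKO, and 1 to 2 for the interaction of both losses. In neonatal mTEClo it gave 1 to 3 for EEDcKO against Ctrl and 0 to 2 for AireEEDdKO against EEDcKO. Between mTEChi and mTEClo it gave 1 to 2 in adult WT, 7 to 7 in adult AireKO, 5 to 7 for the adult difference of the Aire effect, 1 to 2 in neonatal Ctrl and in AireEEDdKO, and 3 to 5 in EEDcKO.

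Leaving out 1 library ended these calls. Mcidas in adult mTEClo was no longer called without WT replicate 2, 3, 6 or 8 or AireKO replicate 1, 2 or 3 (log2 -2.78 to -2.08). Dnah9 between the fractions of adult WT fell under 2-fold without mTEClo WT replicate 3, 6, 7 or 8 or mTEChi WT replicate 1, 5, 6 or 7 (log2 0.955 to 0.999), and its adult Aire difference without mTEClo AireKO replicate 4 (0.995) or mTEChi AireKO replicate 3 (0.992). Dynlrb2 between mTEChi AireEEDdKO and EEDcKO was lost without EEDcKO replicate 1 (-1.93) or AireEEDdKO replicate 1 (-2.32) or 2 (-2.31). In mTEClo it was lost without EEDcKO replicate 2 (-2.92) or any AireEEDdKO library (-3.69 to -3.10). Dnah9 in mTEClo EEDcKO was under 2-fold without EEDcKO replicate 3 (-0.952). Between the fractions, Mcidas was lost in Ctrl without mTEClo replicate 3 (1.66) and in EEDcKO without mTEChi replicate 1 (1.39). Dnah5 was lost in EEDcKO without mTEClo replicate 1 or 3 or mTEChi replicate 1 or 3 (0.990 to 1.40), and in AireEEDdKO without mTEChi replicate 1 or 2 or mTEClo replicate 3 (0.931 to 1.52).

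After the data were seen, fits without mice of 4 weeks, or with age in weeks as a term, were added for the adult comparisons. Without those mice Dnah9 lost its adult Aire difference (0.931), and with the age term Mcidas in mTEClo lost its call (-2.99, adjusted p = 0.093). Sex as a term in the adult fits and age in days in the neonatal fits changed no member call. In the libraries with mitochondrial counts alone, which hold only replicates 1 and 2 of AireKO, Mcidas in mTEClo was not called either (-5.94, adjusted p = 0.146). Mcidas, Dynlrb2 and Tekt1 rest on few reads, so for them a p over the threshold does not show that groups were alike.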
